A study of Mus musculus with 36 samples.

Results

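The zinc finger genes of mouse chromosome 13 were examined for H3K9me3, trimethylation of lysine 9 of histone H3, a mark of repressed chromatin, in liver. The rule for members used name and place and no measured value: every chromosome 13 bin that the deposited tables annotate to Rsl1 or to a gene whose symbol begins with Zfp and a number. A bin is a piece of up to 501 bp of an H3K9me3 peak. The rule found 38 genes and 1136 rows over the 6 deposited comparisons. The female age comparison held 173 member bins of 120683, and the male age comparison held 208 of 148133. With maternal obesity (MO), there were 193 of 140214 bins in females and 225 of 159357 in males at 3 weeks, and 174 of 116257 and 163 of 102145 at 8 weeks.

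Most of these genes encode KRAB zinc finger proteins. Their fingers bind chosen DNA sequences, often in transposable elements, and their KRAB domain recruits the cofactor TRIM28, which brings in the H3K9 methyltransferase SETDB1 and the HP1 readers of the mark. The chromosome 13 cluster is known in liver for the Regulator of sex-limitation (Rsl) genes: Rsl1 and its neighbours hold down male-predominant liver genes such as C4a (sex-limited protein), Cyp2d9 and the major urinary proteins in females. KRAB zinc finger genes are themselves common carriers of H3K9me3.

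The libraries came from liver tissue of male and female offspring of dams on a control diet (CF and CM groups) or a Western-style diet (MF and MM groups), which the dams ate before mating and until weaning. The mice came from a Reg3g fl/fl colony on a C57BL/6J background and included floxed littermate controls, and the offspring, sired by wild-type C57BL/6J males, were Reg3g fl/+ or Reg3g fl/fl. Mice were taken at 3 weeks, before weaning, or at 8 weeks, after 5 weeks on chow, with 4 ChIP libraries in each of 8 groups (nothing says whether these mice share litters) and 4 input libraries in all. Liver tissue holds several cell types, and a change in the mark per cell cannot be told apart from a change in the mix of cells. For each bin the tables give the log2 change, its p-value, the FDR (the p-value after Benjamini-Hochberg adjustment) and the signal as log2 CPM (reads of the bin scaled to a common library size), and no value per library. The standard errors (SE) printed here are therefore approximate, implied by each deposited change and its p under a normal distribution. A positive age change is higher at 8 weeks, a positive MO change is higher with MO, and 1 unit on the log2 scale is a 2-fold difference.

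By the gene positions in the tables, the 38 genes formed 10 runs whose neighbouring members lay at most 1 Mb apart. The densest run held 24 genes over 2.55 Mb (mm10, chr13:65278814-67827002), from Zfp369 to Zfp273, with Rsl1 inside it. A run of 4 genes held Zfp808, Zfp935, Zfp934 and Zfp1008, and the pairs Zfp389 with Zfp184 and Zfp72 with Zfp825 stood apart. Zfp322a, Zfp169, Zfp346, Zfp367, Zfp366 and Zfp131 lay singly. In the RefSeq gene table for GRCm38, 35 of the 38 symbols were found, and 15 of the genes with a bin carry an Rsl name as symbol or synonym. The table lists 5 further genes that fit the rule but had no bin annotated to them: Zfp459, Zfp640, Zfp748, Zfp874a and Zfp953. They are not free of the mark for that reason, since bins annotated to other genes lie within the spans of Zfp748 and Zfp953. The bins were spread unevenly. Zfp998 had 32 bins in the female and 39 in the male age comparison and Zfp808 had 31 and 33, while 26 of 36 genes in females and 24 of 37 in males had at most 3. A bin carries the name of the gene with the nearest start, so a member bin can lie far from that gene or inside another one, and the GENCODE M21 annotation was used to say what each named bin overlaps.

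The stretches of sequence below are examples from places called with age. The places of Zfp808 and of Zfp369 at Gm10775, described further on, are not printed. The stretches were read from GRCm38 (RefSeq) inside the member bins, on the plus strand except for Zfp169. In all but that one, capitals mark CG dinucleotides. The Rsl1, Zfp998, Zfp458 and Zfp825 stretches are central parts of the places called in both sexes, and the Zfp322a stretch is the centre of the member bin with the smallest p in males. The Rsl1 stretch is chr13:67155003-67155302, the Zfp998 stretch chr13:66630513-66630812, the Zfp458 stretch chr13:67258544-67258843, the Zfp825 stretch chr13:74456871-74457170 and the Zfp322a stretch chr13:23344882-23345181.
Rsl1: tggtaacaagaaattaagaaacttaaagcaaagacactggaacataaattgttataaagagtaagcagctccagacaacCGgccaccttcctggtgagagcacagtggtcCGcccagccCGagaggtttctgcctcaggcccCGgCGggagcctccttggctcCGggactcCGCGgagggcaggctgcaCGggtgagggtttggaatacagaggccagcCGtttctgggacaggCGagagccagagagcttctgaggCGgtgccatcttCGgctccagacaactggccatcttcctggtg
Zfp998: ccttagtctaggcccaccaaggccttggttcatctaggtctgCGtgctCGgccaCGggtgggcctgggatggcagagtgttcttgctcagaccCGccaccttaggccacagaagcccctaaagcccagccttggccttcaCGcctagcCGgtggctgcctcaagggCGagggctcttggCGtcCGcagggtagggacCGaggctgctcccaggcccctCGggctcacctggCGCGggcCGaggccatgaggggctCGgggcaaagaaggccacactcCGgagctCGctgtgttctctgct
Zfp458: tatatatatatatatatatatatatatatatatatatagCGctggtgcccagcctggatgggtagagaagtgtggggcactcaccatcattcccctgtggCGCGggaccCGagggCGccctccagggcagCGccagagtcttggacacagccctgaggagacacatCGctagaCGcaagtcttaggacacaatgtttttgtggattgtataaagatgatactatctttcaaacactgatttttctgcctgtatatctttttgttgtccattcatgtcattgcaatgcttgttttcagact
Zfp825: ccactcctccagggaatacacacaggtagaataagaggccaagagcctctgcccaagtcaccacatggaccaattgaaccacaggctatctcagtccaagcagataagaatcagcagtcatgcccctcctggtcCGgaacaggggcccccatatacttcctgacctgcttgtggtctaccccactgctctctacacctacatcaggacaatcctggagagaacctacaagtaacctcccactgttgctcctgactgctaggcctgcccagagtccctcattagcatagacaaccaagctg
Zfp322a: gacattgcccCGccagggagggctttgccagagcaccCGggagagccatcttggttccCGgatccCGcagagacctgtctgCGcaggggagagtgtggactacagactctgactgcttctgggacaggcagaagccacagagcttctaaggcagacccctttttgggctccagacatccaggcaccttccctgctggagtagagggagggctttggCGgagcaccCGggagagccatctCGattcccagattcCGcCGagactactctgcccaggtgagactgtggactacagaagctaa

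These stretches differ in base composition. The Rsl1 stretch has 13 CG dinucleotides in 300 bases and is 57.3% G or C, and 79% of it is soft-masked as repeat. The Zfp998 stretch has 17 and is 66.7% G or C with 1% masked, the Zfp322a stretch has 10 with 64.7% masked, and the Zfp458 stretch has 8 with 14% masked. The Zfp825 stretch, which fell in both sexes, has 1 CG in 300 bases. A single CG is common, since 98.9% of full-width member bins and 99.4% of all full-width bins of the female comparison hold at least 1.

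The Zfp169 stretch is coding sequence from the last exon of Zfp169 (chr13:48490307-48490456, minus strand, read along the gene), and its capitals mark a match to ACNGGNGANAANCCN, every codon choice for the TGEKP linker that joins neighbouring C2H2 fingers.
Zfp169: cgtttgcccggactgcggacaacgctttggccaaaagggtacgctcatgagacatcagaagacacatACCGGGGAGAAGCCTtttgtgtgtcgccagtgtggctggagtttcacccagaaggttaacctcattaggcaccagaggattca

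Linker matches on either strand were found in 2 of 173 member bins in females (1.16%, against 0.164% of all bins) and in 3 of 208 in males (1.44% against 0.157%). For Zfp genes on other chromosomes the shares were 3.40% and 3.16%. In males the matches lay in the Zfp169 exon, in the 3′ end of Zfp184, which held 3, and in an intergenic bin annotated to Zfp369.

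Between 3 and 8 weeks, 13 of 173 member bins (7.51%) passed an FDR of 0.05 in control females by the deposited edgeR exact test, against 2.72% of all bins. Of these, 7 were higher at 8 weeks (4.05%, against 1.49% of all bins) and 6 were lower (3.47%, against 1.23%). In control males, 24 of 208 member bins (11.5%) passed, against 4.41% of all bins, of which 18 were higher (8.65%, against 2.42%) and 6 were lower (2.88%, against 1.99%). The calls fell on 10 of 36 genes in females and on 15 of 37 in males, against 2573 of 20533 and 4711 of 20651 genes in the whole tables. A called bin in both sexes was found for 9 genes: Rsl1, Zfp346, Zfp369, Zfp458, Zfp595, Zfp808, Zfp825, Zfp935 and Zfp998. The matching count over all genes is not given here, so the 9 names are a list and not a comparison. Zfp346 and Zfp595 were called at different places in the 2 sexes. The called bins of Zfp935 fell in females and rose in males. Whether the members differ from other bins was not tested, since bins of 1 locus are not independent.

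**Figure D1:**
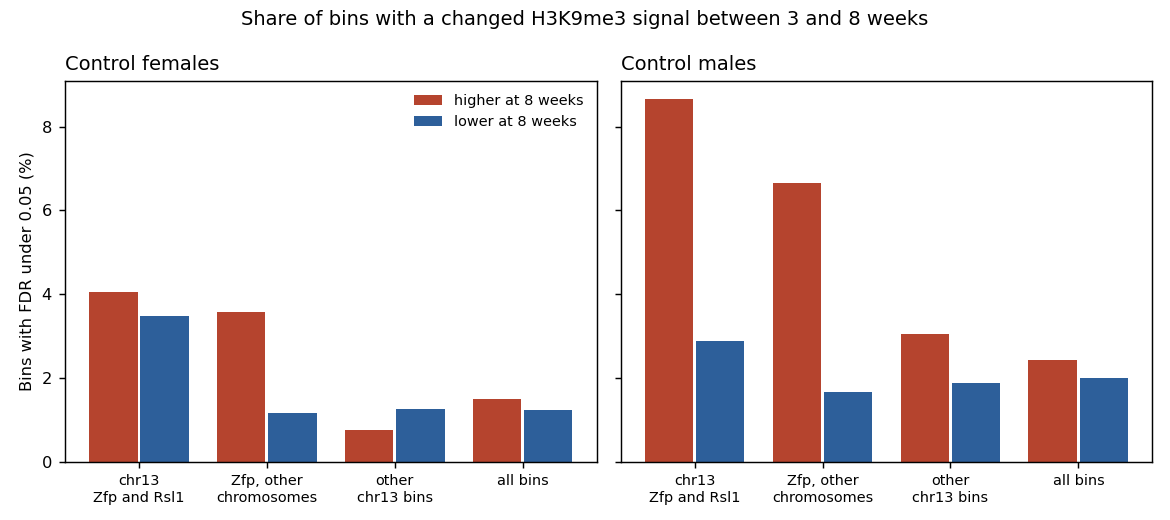
Share of bins (vertical axis, percent, from 0) with an FDR under 0.05 between 3 and 8 weeks in control females and control males, for chromosome 13 zinc finger genes, Zfp genes on other chromosomes, other chromosome 13 bins and all bins. Red bars are bins higher at 8 weeks and blue bars bins lower. The members' bar for higher bins in males stands at 8.65%, against 2.42% of all bins.

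Zfp genes on other chromosomes also stood above the background. Among them, 82 of 1734 bins were called in females (62 higher and 20 lower, 4.73%) and 179 of 2153 in males (143 higher and 36 lower, 8.31%). The other bins of chromosome 13 were called in 96 of 4810 cases in females (2.00%) and 306 of 6210 in males (4.93%). In females the members had nearly as many losses as gains, while the other Zfp genes had mostly gains.

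The shift was not limited to the called bins in females. The median change of the 173 member bins was 0.21, against -0.03 over all bins (0.0823 over the 65 in single-bin peaks), and 67.1% of the member bins were above 0, against 48.1% of all. Counted by genes, 30 of 36 had a median bin above 0. In males the median over 208 bins was 0.11, against -0.05 over all bins, with 53.8% of bins above 0 against 47.6%, and 27 of 37 genes had a median above 0. In 23 of 36 genes the median was above 0 in both sexes, and in 3 it was below 0 in both. Both counts, and the median of males, were lower once the trend with signal and base composition was taken out. After the median change of bins with like GC content and signal was subtracted, 7 member bins remained called in females (2 higher and 5 lower, 4.05%, against 0.951% of all bins) and 5 in males (3 higher and 2 lower, 2.40%, against 1.68%), and the medians were 0.20 in females and -0.01 in males. The bins that kept their call were those of Zfp369 (at Gm10775 and the lost exon), Zfp808, Zfp346 (both), Zfp935 and Zfp595 in females, and of Zfp322a, Rsl1, Zfp369 (at Gm10775), Zfp825 and Zfp595 in males.

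**Figure D2:**
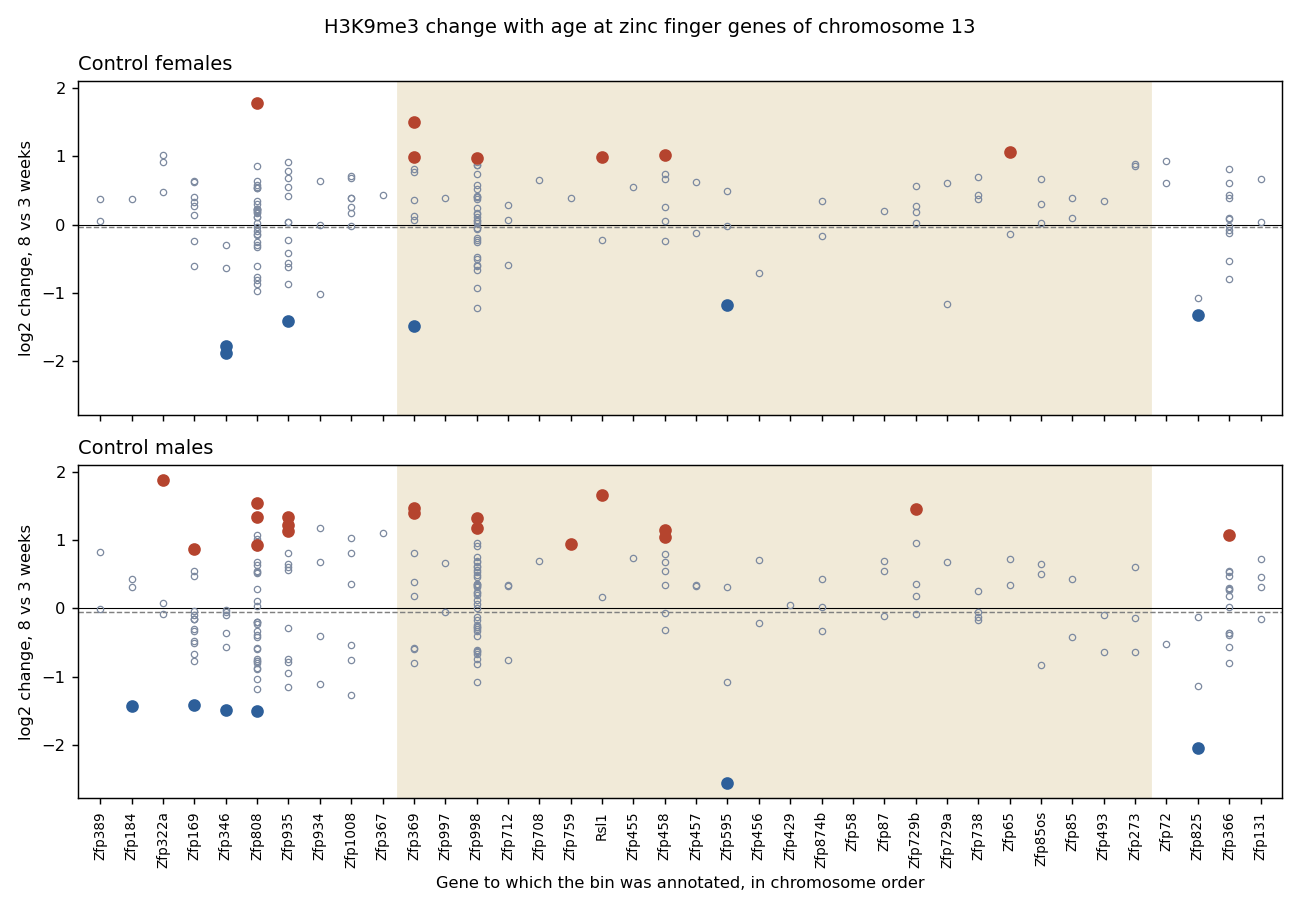
log2 change in H3K9me3 between 3 and 8 weeks (vertical axis, positive is higher at 8 weeks) for every member bin, by gene in chromosome order, in control females (top) and control males (bottom). Filled red and blue points passed an FDR of 0.05, open points did not, the shaded area is the densest run and the dashed line is the median of all bins. Gains stood in both the shaded and unshaded genes in males, and 6 of the 7 gains of females lay in the densest run.

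The gains of females were led by Zfp808, a gene in the smaller run. Its called bin (chr13:61958031-61958485) lay 171 kb upstream of the gene in no annotated gene and rose by 1.79 ± 0.37 (approximate SE, FDR = 0.000644, edgeR exact test on 4 against 4 libraries). Of the 75-base words in this bin, 80.3% occur again on the chromosomes of GRCm38. Zfp369 had the next gain, 1.50 ± 0.24 (FDR = 1.12e-06), in a bin 18.6 kb upstream (chr13:65259716-65260216) that overlaps an exon of Gm10775, not Zfp369 itself. That bin is the member bin with the smallest p in females, sits in a peak of 8734 bp, has no repeated word and has a signal of 43.2 CPM per kb, against a median of 16.6 for member bins and 14.2 for all bins. Zfp65 rose by 1.07 ± 0.31 (FDR = 0.0310) in a bin of its 3′ UTR, and Zfp458 by 1.01 ± 0.29 (FDR = 0.0267) in an intron. Zfp369 also rose by 0.99 ± 0.22 (FDR = 0.00163) in its last exon, and Rsl1 and Zfp998 followed with gains just under 1.

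The gains of males were led by Zfp322a, which lies alone on the chromosome. Its bin (chr13:23344782-23345282), in an intron of the antisense transcript 4930586N03Rik, rose by 1.88 ± 0.28 (FDR = 1.07e-07), the smallest p of any member bin. The nearest female bin of this gene had a change of 0.92 (FDR = 0.0531), which did not pass. Rsl1 rose by 1.67 ± 0.27 (FDR = 9.4e-07). Zfp808 rose by 1.54 ± 0.33 (FDR = 0.000634) in an intron of the noncoding gene Gm48228, 38.3 kb upstream, and also at the place called in females, by 1.35 ± 0.36 (FDR = 0.0124). Zfp369 rose by 1.47 ± 0.28 (FDR = 7.84e-05) at its 3′ end and by 1.40 ± 0.25 (FDR = 2.01e-05) at the Gm10775 exon. Zfp729b rose by 1.45 ± 0.36 (FDR = 0.00619) in an intergenic bin of 300 bp.

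Zfp169 and Zfp366, which also lie singly, gained H3K9me3 in coding exons in males. Zfp169 rose by 0.87 ± 0.26 (FDR = 0.0365) in the exon whose linker sequence is printed above, and Zfp366 by 1.07 ± 0.33 (FDR = 0.0417). In females the overlapping Zfp169 bin had a change of 0.64 (FDR = 0.134). Zfp935 had 3 gains in males, of 1.34, 1.23 and 1.13. The first and last lay in no annotated gene, and the bin of the 1.23 gain lies in Zfp934, and in Zfp935 only by GENCODE. In females no such place passed, with changes of 0.55 and 0.42 at the places of the 1.13 and 1.23 gains. The bins at Zfp367, 1 in each sex, and at Zfp131 did not pass in either sex.

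The losses lay mostly outside the densest run, 4 of 6 in females and 5 of 6 in males, against 90 of 173 and 107 of 208 member bins there. Zfp346, which encodes a zinc finger protein that binds double-stranded RNA, lost H3K9me3 at 2 places in females: it fell by 1.88 ± 0.42 (FDR = 0.00200) in an intron and by 1.78 ± 0.38 (FDR = 0.000927) at a bin that overlaps an exon near one of its starts. In males another place of Zfp346 fell by 1.49 ± 0.40 (FDR = 0.0150). All 4 bins of Zfp346 in females and all 6 in males had changes below 0. Zfp595, an Rsl-named gene, fell by 1.18 ± 0.34 (FDR = 0.0347) in females, 2.42 kb upstream of a start, and by 2.56 ± 0.56 (FDR = 0.00102) in males in a bin of 242 bp that lies within Zfp953 in GENCODE. The latter is the largest change of any member bin and has a low signal, 1.54 on the log2 CPM scale.

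Further losses lay at Zfp369, Zfp808, Zfp169, Zfp935 and Zfp184. Zfp369 fell by 1.49 ± 0.38 (FDR = 0.0109) in females in a coding exon, between its gained places upstream and at its 3′ end. Zfp808 fell by 1.50 ± 0.44 (FDR = 0.0296) in males in a bin (chr13:62186293-62186763) that is intronic in GENCODE but lies outside the RefSeq span of the gene, and Zfp169 by 1.42 ± 0.43 (FDR = 0.0386) in males in a bin near one of its starts. Zfp935 fell by 1.41 ± 0.38 (FDR = 0.0160) in females in an intergenic bin. Zfp184 fell by 1.43 ± 0.45 (FDR = 0.0463) in males at its 3′ end. Bins annotated to 1 gene thus included both gains and losses for Zfp369 in females and for Zfp808 and Zfp169 in males, although the Zfp808 gains lay far upstream of it. Zfp184 had no called gain. The lost Zfp935 place had a change of -0.74 (FDR = 0.385) in males, which did not pass.

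Female and male libraries are separate animals, so the sexes can be set side by side. Over the 100 places where a female and a male member bin overlapped by at least 50% of each, 74 changed with the same sign, against 64.7% of 54633 such places over all bins and 69.6% of 872 at Zfp genes elsewhere. The Spearman correlation of the changes was 0.60 over the 100 places and 0.42 over all, as a description, since neighbouring places share a locus. Of the 100, 5 places were called in both sexes, all in the same direction (5.00%, against 0.714% of all places). All 16 places called in at least 1 sex had the same sign in the other, against 2782 of 3075 over all bins.

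**Figure D3:**
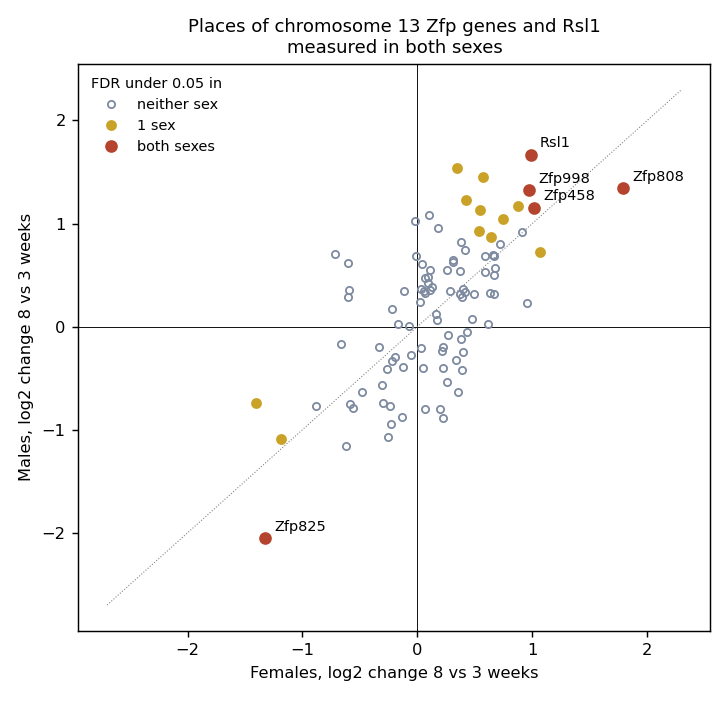
log2 change between 3 and 8 weeks in females (horizontal axis) and in males (vertical axis) at the 100 places measured in both sexes. Red points passed an FDR of 0.05 in both sexes, yellow points in 1 sex and open points in neither, and the dotted line marks equal changes. The 4 places that gained in both sexes lie at the upper right and Zfp825 lies alone at the lower left.

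Of these 5 places, 4 gained in both sexes. Rsl1 rose by 0.99 in females and 1.67 in males, Zfp998 by 0.97 ± 0.27 (FDR = 0.0223) and 1.32 ± 0.28 (FDR = 0.000749), and Zfp458 by 1.01 and 1.16 ± 0.31 (FDR = 0.0122). The Zfp808 place rose by 1.79 and 1.35. The Zfp998 place lies 189 kb from the gene of that name and in no annotated gene. Zfp825 was the only place lost in both sexes: it fell by 1.33 ± 0.36 (FDR = 0.0205) in females and by 2.05 ± 0.43 (FDR = 0.000488) in males, in an intron of the noncoding gene E430024I08Rik. With any overlap allowed, the count was 7, through the 2 gained places of Zfp369. After the trend removal, none of the 5 places remained called in both sexes: Zfp808 did in females, Rsl1 and Zfp825 did in males, and Zfp998 and Zfp458 in neither. Whether any of these changes differs in size between the sexes was not tested.

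Rsl1, the founding member of the Rsl group, had 2 bins in every comparison. One lies at its promoter, 106 bp (females) or 91 bp (males) from the start, and the other lies 17.8 kb upstream, where GENCODE has no gene. At the upstream bin the female change with age was 0.99 ± 0.24 (FDR = 0.00503) and the male change 1.67 ± 0.27 (FDR = 9.4e-07). After the trend removal these were 0.61 (FDR = 0.198) and 1.32 (FDR = 0.000961). Its signal was 36.8 CPM per kb in the female comparison and 31.4 in the male one, against member medians of 16.6 and 12.0. At the promoter bin the changes were -0.22 ± 0.41 (FDR = 0.921) and 0.17 ± 0.54 (FDR = 0.969), neither beyond its error. Of the words in the upstream bin, 2.11% occur again in the genome in either sex although 74.1% of its bases are masked as repeat.

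With MO, no Rsl1 bin passed (p here and below is that of the deposited edgeR exact test). At 3 weeks the upstream bin had changes of 0.40 ± 0.26 (exact p = 0.122) in females and 0.48 ± 0.26 (exact p = 0.0660) in males. At 8 weeks the changes were 0.19 ± 0.24 (exact p = 0.418) in females and 0.14 ± 0.35 (exact p = 0.680) in males, the last in the bin that begins where the male age bin ends (chr13:67155376-67155635). The promoter bin lay between -0.36 and 0.37 in the 4 MO comparisons.

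**Figure D4:**
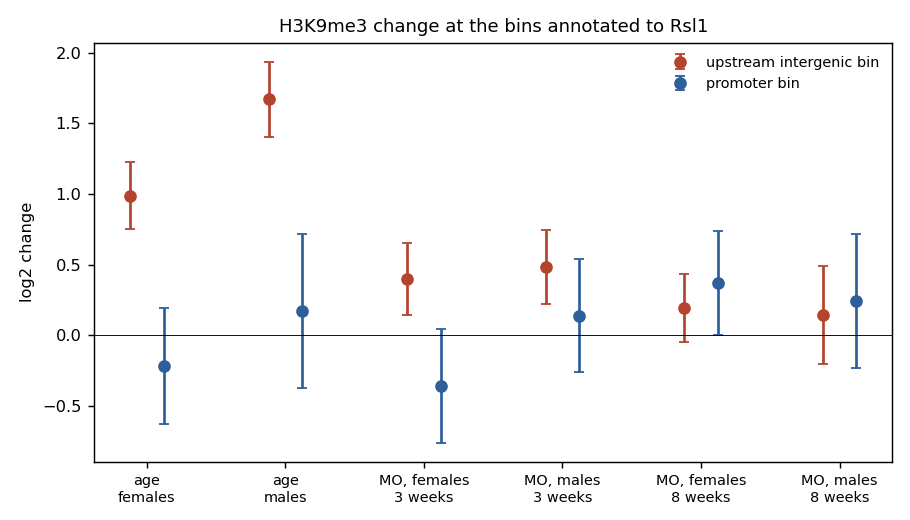
log2 change in H3K9me3 (vertical axis) at the upstream intergenic bin (red) and the promoter bin (blue) annotated to Rsl1 in the 6 comparisons, with bars of 1 approximate SE implied by the deposited p. The upstream bin stands at 0.99 and 1.67 in the age comparisons and at or below 0.48 in the MO comparisons.

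The called bins were those with more signal. In females 12 of the 13 calls fell among the 117 member bins above the median signal of the table, and in males 20 of 24 fell among 133, with all 18 gains. The same holds for all bins in part: above the median signal 4.92% of bins were called in males, with 3191 gains and 455 losses, against 3.89% with 392 gains and 2489 losses at or below it. In females 3.22% of all bins were called above it, with 1622 gains and 321 losses, against 2.22% with 180 gains and 1162 losses. Among the member bins at or below the median signal there were 1 loss and no gain in females, and 4 losses and no gain in males. The highest signals per length belonged to Zfp369 (48.9 CPM per kb at its last exon), the Zfp369 place at Gm10775, Zfp169 (37.8), Rsl1 (36.8) and Zfp708 (32.9) in females. The median signal of members was 16.6 CPM per kb in females, against 14.2 over all bins, and 12.0 in males, against 10.1.

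Member bins held more repeat than other bins. Their median soft-masked share was 32.1% in females, against 12.8% over all bins, and 31.8% in males, against 12.3%. In males 15 of 78 member bins masked over 50% were called (11 higher and 4 lower), against 9 of 130 others. Over all bins the shares were 6.63% and 3.81%. In females the counts were 6 of 65 and 7 of 108 (9.23% and 6.48%), against 3.99% and 2.33% over all bins. Words repeated elsewhere on the chromosomes filled over 50% of 14 female and 26 male member bins (8.09% and 12.5%), against 3.72% and 4.03% of other chromosome 13 bins. Without such bins, 12 of 159 member bins were called in females (7.55%) and 22 of 182 in males (12.1%), against 2.72% and 4.41% of all bins with none left out. The median peak length was 661 bp in females and 639 bp in males, against 818 and 805 bp over all bins, and near that of the other chromosome 13 bins (644.5 and 645 bp).

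By annotation, the distal intergenic bins of males had 9 calls among 76, all gains, against 3 losses and 1 gain among 33 promoter bins (11.8% and 12.1% called, against 4.60% and 4.25% of all bins of these classes). In females the 62 intergenic bins had 3 gains and 1 loss and the 23 promoter bins had 2 losses (6.45% and 8.70%, against 2.84% and 2.90%). The exon bins had a median of 0.54 over 17 bins in females, against -0.03 over all exon bins, and of 0.11 over 19 in males, against -0.03. The distal intergenic bins had medians of 0.30 and 0.23, against 0.01 and -0.02 over all such bins. In the densest run, 8 of 83 bins were called in females (6 higher and 2 lower) with a median of 0.28, and 10 of 101 in males (9 higher and 1 lower) with a median of 0.32. These shares were 9.64% and 9.90%, against 2.72% and 4.41% of all bins. In the same span 2 of 27 and 5 of 31 bins annotated to other genes were called (7.41% and 16.1%). Outside it 5 of 90 bins were called in females (5.56%) and 14 of 107 in males (13.1%), with medians of 0.17 and -0.09. Bins of Rsl-named genes, 26 in females, had a median of 0.37 with 2 gains and 1 loss, and the 32 in males a median of 0.33 with 4 gains and 1 loss (11.5% and 15.6% called).

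MO was then compared with control at each age. No bin of any gene passed an FDR of 0.05 in the 4 comparisons (the smallest was 0.117 and 0.211 in females and males at 3 weeks, and 0.361 and 0.218 at 8 weeks), so an unadjusted p under 0.001 was used as a looser mark. None of 193 member bins reached it in 3-week females, against 0.211% of all bins, and 14 had an unadjusted p under 0.05 (7.25%, against 7.72%). In males 1 of 225 reached it, against 0.278% of all bins, and 32 had a p under 0.05 (14.2%, against 8.83%), of which 31 were higher with MO. At 8 weeks 1 of 174 reached it in females (0.162% of all bins), with 15 under 0.05 (8.62%, against 7.00%), and none of 163 in males (0.114%), with 10 under 0.05 (6.13%, against 6.50%).

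The member bins stood mostly above 0 in 3-week males. Their median change with MO was 0.30, against 0.03 over all bins, with 72.9% of bins and 32 of 38 gene medians above 0, against 52.1% of all bins. After the trend removal the median was 0.18. The 33 bins annotated to other genes in the densest run had a median of 0.29 with 75.8% above 0. Zfp genes on other chromosomes had a median of 0.13 with 59.2% above 0. In females at 3 weeks the median was 0.14, against -0.01, with 59.1% above 0. At 8 weeks the median of females was 0.03, against 0.01 over all bins, and that of males 0.05, against 0.00. Of 103 places measured in both sexes at 3 weeks, 53 were above 0 in both (51.5%, against 28.3% of 56658 places over all bins), and at 8 weeks 29 of 98 were (29.6%, against 26.3%). The 3-week MO comparisons and the age comparisons of a sex share the same 3-week control libraries, as the 8-week ones share the 8-week controls, so these values are set side by side and not related to each other.

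**Figure D5:**
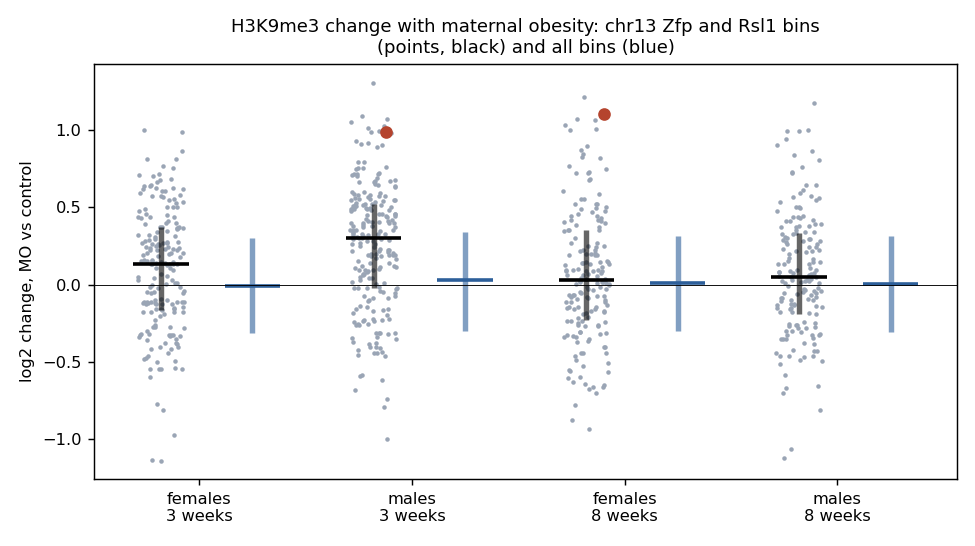
log2 change with MO (vertical axis) for every member bin (grey points, with red points at an unadjusted p under 0.001) in 4 comparisons. Black lines give the median and quartiles of the member bins and blue lines those of all bins. The median of the member bins is 0.30 in males at 3 weeks, against 0.03 over all bins.

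The single bin past p of 0.001 in males at 3 weeks belonged to Zfp366, a corepressor of the estrogen receptor. It lay 27.9 kb upstream and had a change of 0.99 ± 0.27 (exact p = 0.000254, FDR = 0.509). Zfp85os, a noncoding transcript antisense to Zfp85, followed with 1.06 ± 0.33 (exact p = 0.00124, FDR = 0.640). Downward, the smallest p values belonged to Zfp169, -0.999 ± 0.39 (exact p = 0.0112), and Zfp273, -0.79 ± 0.41 (exact p = 0.0507). In females at 3 weeks they belonged to Zfp346, -1.14 ± 0.35 (exact p = 0.00115, FDR = 0.718), at the exon bin that also fell with age, and Zfp366, -0.77 ± 0.35 (exact p = 0.0292), and upward to Zfp389, 0.86 ± 0.30 (exact p = 0.00361), in an exon of Gm11273, and Zfp808, 1.00 ± 0.36 (exact p = 0.00492).

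At 8 weeks the bin past p of 0.001 in females belonged to Zfp998, in an exon of the noncoding gene Gm26806 (1.11 ± 0.30, exact p = 0.000273, FDR = 0.737), and a second Zfp998 bin had 1.03 ± 0.33 (exact p = 0.00159). The next gene was Zfp729b with 1.07 ± 0.40 (exact p = 0.00781), in a bin that lies in the 3′ UTR of Zfp729a. Downward stood Zfp366, -0.78 ± 0.37 (exact p = 0.0343), and Zfp738, -0.64 ± 0.32 (exact p = 0.0438). In males the genes with the smallest upward p values were Zfp998, with 1.00 ± 0.33 (exact p = 0.00268) and 1.17 ± 0.40 (exact p = 0.00357) at 2 bins, and Zfp366, with 1.00 ± 0.41 (exact p = 0.0150). Downward they were the Zfp131 promoter, -1.12 ± 0.37 (exact p = 0.00272), and a further Zfp366 bin, -1.06 ± 0.40 (exact p = 0.00748). Zfp366 thus had bins on both sides of 0 in males at 8 weeks. None of these reached an FDR under 0.05.

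With MO, the places called with age in both sexes varied. The Zfp808 place was in the 3-week table of males with 0.53 (exact p = 0.186), and had -0.66 (exact p = 0.0535) in females and 0.01 in males at 8 weeks. The Zfp998 place had 3-week changes of 0.25 in females and 0.72 (exact p = 0.00970) in males, and 8-week changes of 0.10 and 0.05, and the Zfp458 place 0.09 and 0.44 at 3 weeks and 0.01 and 0.38 at 8 weeks. The Zfp825 place had 0.19 and 0.65 (exact p = 0.0215) at 3 weeks and was in neither 8-week table.

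The cofactors of KRAB proteins and the known liver targets of the Rsl genes lie elsewhere in the genome. Over Trim28, Setdb1, Atf7ip and the HP1 genes Cbx1, Cbx3 and Cbx5, none of 22 bins passed with age in females and 1 of 27 in males, where Cbx5 had no bin: the promoter bin of Atf7ip, a partner of SETDB1, fell by 1.02 (FDR = 0.0385). The adjoining bin in females had a change of -1.16 (FDR = 0.0545). Over the targets C4a, C4b, Cyp2d9 and the Mup genes, 6 of 92 bins passed in females (3 higher and 3 lower) and 17 of 97 in males (13 higher and 4 lower), against 2.72% and 4.41% of all bins. Of the 4 losses of males, 3 lay at Cyp2d9, a male-predominant steroid hydroxylase, and fell by 1.88 (FDR = 0.00268), 1.71 (FDR = 0.0215) and 1.30 (FDR = 0.0265). In females no Cyp2d9 bin passed. The gains lay at Mup genes, the largest in males at Mup19 (1.62, FDR = 7.61e-07) and Mup21 (1.56, FDR = 2.89e-05), and in females at Mup9 (1.42, FDR = 0.000242). The Mup genes are near-identical copies, and reads among them may not be placed with certainty.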

How the data were processed

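H3K9me3 ChIP-seq was read from the 6 comparison tables that the authors deposited. Per the study's methods, broad peaks were called with MACS2 on mm10 (GRCm38), cut into bins, counted with featureCounts, annotated with ChIPseeker and compared by the authors with edgeR's exact test. The deposited change and signal are log2 values (log2 fold change, average log2 CPM), and the deposited p-value and FDR are unadjusted and Benjamini-Hochberg adjusted probabilities. These columns are the authors' own comparisons: the tables hold no value per library, so they were used as deposited, no contrast was refitted, and the depth and spread of single libraries were not analysed here. The planned count tests gave way to them. Age tables were deposited as 3 relative to 8 weeks, and the sign was turned. Each peak has 1 bin in a table, how it was chosen is not stated, and the FDR was adjusted over more bins than are listed.

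Members were the chromosome 13 rows named Rsl1 or Zfp with a number. The members and gene lists were chosen with earlier results of these data known. A bin was called below an FDR of 0.05 in the age comparisons, and below a p of 0.001 before adjustment in those of MO. Named bins were Rsl1, the 5 genes with the largest gains and losses in each age comparison, genes called in both sexes, the 2 genes with the smallest p in each direction of each MO comparison, the 5 genes with most signal or most bins, genes lying singly and the cofactor and target lists.

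GC content, soft-masked share, CG dinucleotides, linker matches and repeated 75-base words were read from GRCm38. Signal per length is CPM divided by the bin's length in kb. The trend removal subtracts the median change of each GC decile by log2 CPM decile and approximates p and FDR again. Alternatives are given in the closing section. Input libraries were not used. Python 3.11.15, numpy 2.4.6, pandas 2.3.3, scipy 1.17.1 and matplotlib 3.10.9 were used.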

Additional observations from a re-analysis of the deposited data

How the results depend on the processing

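No paired analysis was possible because the tables hold no value per library, and for the same reason leaving out each replicate in turn gave no value. No female and male bin had an identical start and end, so that setting gave no value. Single-bin peaks, repeated words, the count without Zfp808 and Zfp998, and all alternatives to the MO medians were added after seeing the data. The cause of each shift below was not tested, and the settings that use fewer bins or a stricter threshold give lower counts by construction.

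The 13 called bins of females became 6 at an FDR under 0.01, 7 after the trend was removed, 8 in the densest run alone and 6 in single-bin peaks. The 24 of males became 10, 5, 10 and 6 in the same order, and 15 in promoter or gene body bins. The 6 in single-bin peaks were 2 higher and 4 lower in each sex. Over all single-bin peaks there were 267 gains and 657 losses in females, and 605 and 1106 in males. Shares of all bins were at hand for the FDR under 0.01, the trend removal and the single-bin peaks. In that order the shares were 3.47% against 1.02%, 4.05% against 0.951% and 9.23% against 2.29% in females. In males they were 4.81% against 1.62%, 2.40% against 1.68% and 7.23% against 3.29%. The male share after trend removal rests on 5 bins and is near that of all bins. The median of females was 0.0823 in single-bin peaks. The median of males turned to -0.00942 after the trend was removed, and was 0.32 in the densest run, 0.0131 in promoter or gene body bins, 0.35 above the median signal, 0.29 over genes, 0.00273 in single-bin peaks, 0.0231 without bins of repeated words and 0.18 without Zfp808 and Zfp998. At an unadjusted p under 0.01 and 0.05, the MO counts were 5 and 14 in females and 14 and 32 in males at 3 weeks, and 4 and 15 in females and 4 and 10 in males at 8 weeks. The counts under 0.05 were 7.25% and 14.2% at 3 weeks, against 7.72% and 8.83% of all bins. At 8 weeks they were 8.62% and 6.13%, against 7.00% and 6.50%. The share of all bins under 0.01 is not given here, so those counts are not set against it. In males at 3 weeks the densest run held 0 member bins at p under 0.001. The MO medians were 0.0793 in females at 3 weeks in single-bin peaks and 0.18 in males at 3 weeks after trend removal. At 8 weeks that of females was 0.00254 without Zfp808 and Zfp998, -0.0376 after trend removal and 0.0898 in the densest run, and that of males was -0.0599 in single-bin peaks.

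With the trend removed, the called places that passed in males were those of Zfp322a, Rsl1, the Zfp369 place at Gm10775, Zfp825 and the Zfp595 bin of 242 bp, and Rsl1 in females had an FDR of 0.198. Adjustment over the listed bins and trend removal were also run on 14 bins in the female and 25 in the male age comparison (every called bin and those of Rsl1) and on 6 bins in each MO comparison (Rsl1 and the 2 genes of smallest p in each direction), and none of these changed direction.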

Other observations

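Bins annotated to other genes lie in the densest run, and they changed with age too. They are set apart from the members by annotated name only. Some belong to the same zinc finger cluster, such as the Rslcan18 bin in males and the 9430065F17Rik bins within the RefSeq span of Zfp748. Over the 27 non-member bins of that span in females the median change was 0.55, with 85.2% above 0, and over 31 in males 0.58, with 71.0% above 0. Of the 31, 5 passed an FDR of 0.05 in males, all higher at 8 weeks, and 2 of 27 in females, 1 in each direction. The predicted gene Gm7762, next to Zfp369, rose by 1.99 (FDR = 4.06e-06) in males in an exon and by 1.67 (FDR = 0.000992) at a second place, where the female change was 1.57 (FDR = 0.00953). An intergenic bin annotated to Uqcrb, a subunit of respiratory complex III, rose by 1.15 (FDR = 0.00784) in males. The values of these bins were seen before they were chosen.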
